A study of Homo sapiens with 6 samples.

Results

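The transcripts of TRAIL and its receptors were followed in MDA-MB-231 cells, a human breast cancer line of mesenchymal character that lacks the estrogen, progesterone and HER2 receptors. The 6 genes were chosen by name, as the ligand gene TNFSF10 and the 5 genes for proteins that bind the ligand, and each was found among the 60675 gene identifiers of the RNA-seq counts. The treated wells (vitamin C 1, 2 and 3) received 100 μM vitamin C, given as sodium ascorbate, for 3 days with the medium renewed every day. The other wells (control 1, 2 and 3) had medium without it, and no gene was altered in either group. RNA was freed of ribosomal RNA and sequenced from both ends. All wells hold the same line, so the values describe 1 cell line in culture. Because nothing states that the 3 wells of a group came from separate experiments, p-values measure no more than how these wells varied, and that variation may be technical.

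Reads counted in genes ranged from 13434130 to 19553914 in vitamin C libraries and from 17664345 to 22373591 in control libraries. The unmapped share of read pairs was 24.7% to 49.5% after vitamin C and 24.2% to 34.4% in control. The genes of the line were as its description states for most markers: VIM stood at 1254 ± 64.0 CPM after vitamin C and 1274 ± 45.2 CPM in control (SD, n = 3 each), and ESR1, the estrogen receptor gene, had no read in any library. PGR, the progesterone receptor gene, had 4 reads in vitamin C 3 and none in any other library. The HER2 gene was not among the markers. CDH1 and GATA3, which are low or absent in this line, were detected at 3.89 ± 2.57 and 6.10 ± 0.411 CPM after vitamin C, and at 1.57 ± 0.924 and 4.65 ± 0.312 CPM in control. Both means were higher after vitamin C, and neither gene passed (edgeR adjusted p = 0.113 for CDH1 and 0.107 for GATA3). Of 5 leukocyte and endothelial markers, PTPRC, CD3E, CD68 and VWF averaged at most 0.170 CPM in either group. The fifth, PECAM1, stood at 2.04 ± 0.141 CPM after vitamin C and 0.956 ± 0.338 CPM in control (edgeR adjusted p = 0.0439), and its part in the results was not tested. CPM, the count of a gene relative to the library total, were scaled with TMM factors that correct for differences in library composition.

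TRAIL, the TNF-related apoptosis-inducing ligand, is a membrane protein of the TNF family that is also shed into the medium. It signals by clustering the death receptors DR4 (TNFRSF10A) and DR5 (TNFRSF10B), whose death domains recruit FADD and caspase-8 and start apoptosis. DcR1 (TNFRSF10C), held by a lipid anchor without a cytoplasmic part, and DcR2 (TNFRSF10D), with a truncated death domain, bind TRAIL without transmitting a death signal. Osteoprotegerin (TNFRSF11B) is a secreted decoy that is best known for binding the bone-resorption factor RANKL. TNFSF10 is also known as an interferon-induced gene in many cell types.

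TNFSF10 is the gene whose change the results turn on, so the start of its promoter is shown. The RefSeq promoter table held an entry for 1 of the 6 genes, TNFSF10 on chromosome 3 (172523381 to 172523680, minus strand, GRCh38.p14), covering 250 bases before and 50 bases after the RefSeq start. Capitals mark CG dinucleotides and the 10 bases that match the interferon-stimulated response element, searched on both strands as a pair of GAAA with any bases, NN, between them.
TNFSF10 promoter: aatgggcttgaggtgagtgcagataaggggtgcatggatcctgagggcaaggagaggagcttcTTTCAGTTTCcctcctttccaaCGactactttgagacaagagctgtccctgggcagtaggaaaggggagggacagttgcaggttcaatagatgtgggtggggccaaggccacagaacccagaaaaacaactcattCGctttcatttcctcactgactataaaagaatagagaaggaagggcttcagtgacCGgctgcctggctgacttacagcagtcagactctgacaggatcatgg
The interferon element occurred 1 time, on the strand opposite to the gene, and its first base lay at -187 relative to the start. It was present in 1255 of 35116 RefSeq promoters of this length (3.57%). The window held 3 CG dinucleotides, against a median of 14 over all promoters, and 24.5% of promoters had as few or fewer. No match was found in these 300.0 bases for the GC box GGGCGG (in 45% of promoters), the FOXO element GTAAACA (3.42%), the core hypoxia response element ACGTG (21.4%), the AP-1 element TGANTCA (7.71%) or the GAS element TTCNNNGAA (7.66%). These matches describe letters only. Binding and methylation at this promoter were not measured in these libraries.

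TNFSF10 RNA was higher after vitamin C, and it was the 1 gene of the 6 that passed the test. It is encoded on chromosome 3 (172505508 to 172523475, minus strand, ENSG00000121858). It stood at 168.2, 161.1 and 182.3 CPM in vitamin C 1, 2 and 3, against 67.7, 108.6 and 96.7 CPM in control 1, 2 and 3, from 2273, 2227 and 3638 reads after vitamin C and 1191, 2450 and 1947 reads in control. Every vitamin C well lay above every control well, and control 1 lay well below the other control wells. The mean was 170.5 ± 10.8 CPM after vitamin C and 91.0 ± 21.0 CPM in control (SD, n = 3 each). The log2 fold change was 0.91 (SE 0.14), a 1.87-fold rise with a 95% interval from 1.52-fold to 2.31-fold, at adjusted p = 0.00886 by edgeR's quasi-likelihood test and 1.41e-08 by DESeq2. In bulk RNA, more cells that express a gene and more RNA per cell cannot be told apart.

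By p-value TNFSF10 was number 55 of 15261 genes tested. Its log2 fold change was matched or exceeded by 330 tested genes (2.16%), of which 123 passed the test. By edgeR 7.08% of the tested genes passed, 3.60% as higher and 3.48% as lower, and by DESeq2 10.7% did. The study chose TNFSF10 for follow-up from its change in these same libraries, so its p-value is not independent evidence. The gene passed in each of the 15 alternative analyses, with log2 fold changes from 0.73 without control 1 to 1.05 without control 2. Vitamin C 3, which had the lowest unmapped share of its group (24.7%) and a mitochondrial share of counts (1.12%) within the control range of 1.046% to 1.202%, had the highest TNFSF10 level of all libraries. Vitamin C 1 and 2, with mitochondrial shares of 1.82% and 1.77% and unmapped shares of 40.7% and 49.5%, had the other high levels. Whether these library properties bear on the TNFSF10 level was not tested.

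**Figure D1:**
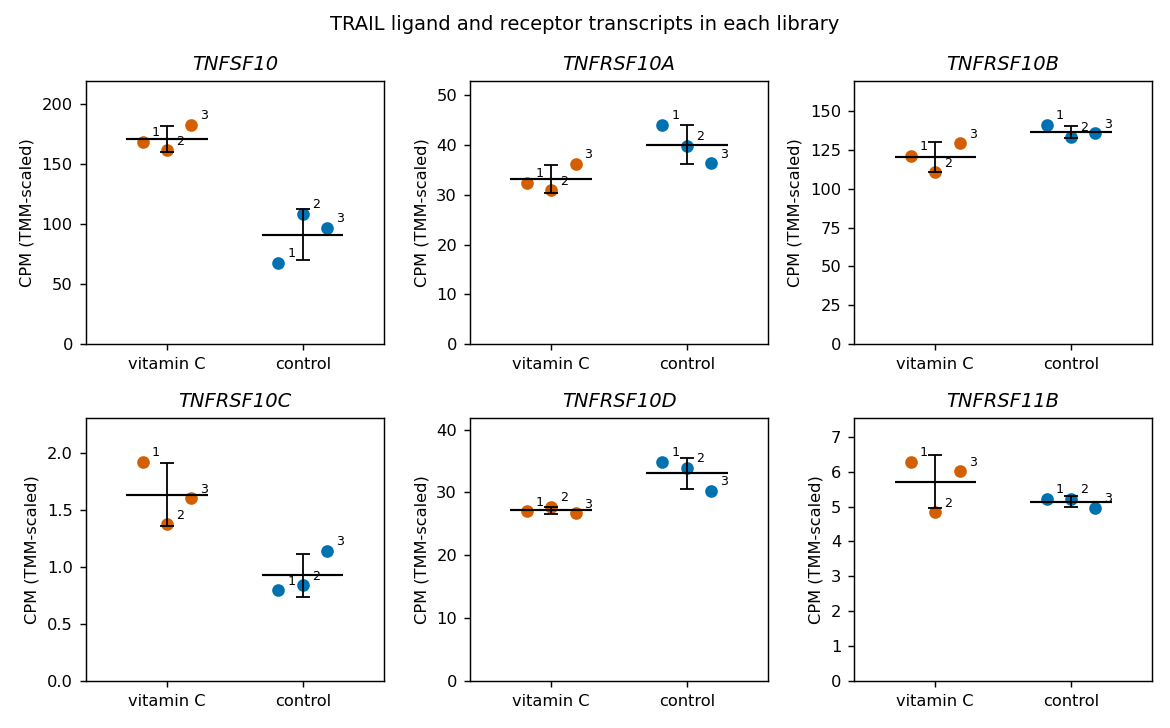
Normalized level (CPM, TMM-scaled) of each of the 6 genes in each library, with vitamin C wells on the left and control wells on the right of every panel. Points are wells labelled with their replicate number, each horizontal line is a mean with its SD as a bar (n = 3 per group), and the TNFSF10 wells lie between 161.1 and 182.3 CPM after vitamin C and between 67.7 and 108.6 CPM in control.

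The genes of both death receptors had slightly lower values after vitamin C, and neither passed the test. TNFRSF10A (ENSG00000104689), encoding DR4, stood at 32.4, 30.9 and 36.2 CPM in vitamin C 1, 2 and 3, against 44.1, 39.8 and 36.3 CPM in control 1, 2 and 3. The groups did not overlap, but vitamin C 3 (36.22 CPM) and control 3 (36.34 CPM) nearly touched. Its log2 fold change was -0.27 (SE 0.10, edgeR adjusted p = 0.107), with a 95% interval from 0.715-fold to 0.963-fold. Without vitamin C 3 it passed, at -0.34 (edgeR adjusted p = 0.0488), and over all 15 alternatives its adjusted p ran from 0.0488 to 0.307.

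TNFRSF10B (ENSG00000120889), encoding DR5, was the most abundant receptor gene. It stood at 121.2, 110.4 and 129.4 CPM in vitamin C 1, 2 and 3, against 141.0, 133.4 and 135.5 CPM in control 1, 2 and 3. All 3 vitamin C wells lay below the control wells, with a mean of 120.3 ± 9.53 CPM after vitamin C and 136.6 ± 3.93 CPM in control (SD, n = 3 each). The log2 fold change was -0.18 (SE 0.08, edgeR adjusted p = 0.156). Its 95% interval ran from 0.784-fold to 0.991-fold, and no alternative brought it past the threshold.

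The decoy receptor genes differed from each other in abundance and in the sign of their values. TNFRSF10D (ENSG00000173530), encoding DcR2, stood at 27.0, 27.7 and 26.7 CPM in vitamin C 1, 2 and 3, against 34.9, 34.0 and 30.3 CPM in control 1, 2 and 3. The vitamin C wells lay close together and below every control well. Its log2 fold change was -0.29 (SE 0.09, edgeR adjusted p = 0.0671, DESeq2 adjusted p = 0.0668), with a 95% interval from 0.718-fold to 0.938-fold. The likelihood ratio test of edgeR, which is more permissive, gave an adjusted p = 0.0469.

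TNFRSF10C (ENSG00000173535), encoding DcR1, was the least abundant member, with 26, 19 and 32 reads in vitamin C 1, 2 and 3, against 14, 19 and 23 reads in control 1, 2 and 3. On the CPM scale these were 1.924, 1.374 and 1.603 after vitamin C and 0.796, 0.842 and 1.14 in control, without overlap. Its log2 fold change of 0.81 (SE 0.27) was close in size to that of TNFSF10 but rested on few reads. It did not pass (edgeR adjusted p = 0.0811, DESeq2 adjusted p = 0.226), and its 95% interval ran from 1.17-fold to 2.62-fold. With the likelihood ratio test the adjusted p was 0.0388.

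TNFRSF11B (ENSG00000164761), encoding osteoprotegerin, was the member whose groups overlapped. It stood at 6.29, 4.85 and 6.01 CPM in vitamin C 1, 2 and 3, against 5.23, 5.23 and 4.97 CPM in control 1, 2 and 3. Vitamin C 2 had the lowest value of the 6 libraries and vitamin C 1 the highest. The log2 fold change was 0.16 (SE 0.15, edgeR adjusted p = 0.539), with an interval from 0.885-fold to 1.402-fold. Its other ligand gene, TNFSF11 (RANKL), had no read in any library. A count of 3 reads, taken as the limit that a count of 0 allows, corresponds to 0.133 to 0.222 CPM in these libraries, and this covers counting error only.

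Over the 6 genes, all of which passed the filter on low counts, 1 was called higher and none lower by edgeR, and the same count came from DESeq2. At an unadjusted p under 0.05 edgeR had 2 higher (TNFSF10 and TNFRSF10C) and 3 lower (TNFRSF10A, TNFRSF10B and TNFRSF10D), and 27.4% of all tested genes lay under that p, 14.3% as higher and 13.1% as lower. The groups did not overlap in 5 of the 6, while 32.3% of all tested genes showed no overlap. With 3 wells against 3, an exact permutation test of a single gene cannot give a two-sided p below 0.1. The median log2 fold change over all tested genes was 0.02. A test of whether the ligand and its receptors changed differently from each other was not run.

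**Figure D2:**
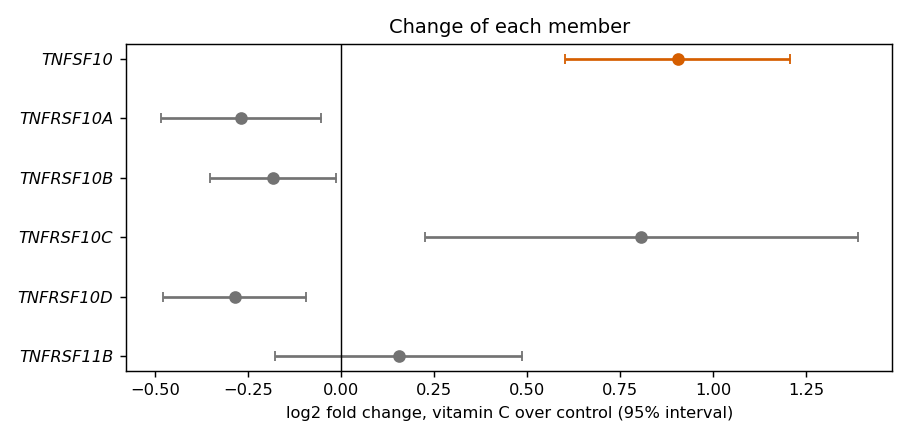
Change in vitamin C wells relative to control wells for the 6 genes on a log2 scale, as edgeR estimates with 95% intervals from 3 wells per group. Orange marks an adjusted p under 0.05, which TNFSF10 alone reached at 0.91, while the intervals of TNFRSF10A, TNFRSF10B and TNFRSF10D lie below 0, that of TNFRSF10C lies above 0 and that of TNFRSF11B spans 0.

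Levels of different genes were compared per kilobase of merged exons. After vitamin C the order of the means was TNFSF10 (49.6 ± 3.14 CPM per kb), TNFRSF10B (24.0 ± 1.90), TNFRSF10A (11.3 ± 0.940), TNFRSF10D (7.67 ± 0.150), TNFRSF11B (2.28 ± 0.305) and TNFRSF10C (1.06 ± 0.179; SD, n = 3 each). In control the means of the ligand and DR5 changed places, with TNFRSF10B at 27.3 ± 0.784 CPM per kb and TNFSF10 at 26.4 ± 6.11 CPM per kb. This difference was smaller than the spread of the TNFSF10 wells. Only control 1 had TNFSF10 below TNFRSF10B (19.7 against 28.1 CPM per kb). TNFSF10 was the higher gene in control 2 (31.6 against 26.6) and in control 3 (28.1 against 27.0). TNFRSF10A (13.7 ± 1.32), TNFRSF10D (9.35 ± 0.689), TNFRSF11B (2.05 ± 0.0608) and TNFRSF10C (0.5997 ± 0.1216) followed in the same order as after vitamin C. All other neighbours in both orders were separated by more than the SD of either gene. The order of TNFSF10 and TNFRSF10B in control depended on the gene length used. TNFSF10 has 3441 bases of merged exons but a longest annotated transcript of 1876 bases, and with longest transcripts TNFSF10 led in both groups (90.9 CPM per kb after vitamin C and 48.5 CPM per kb in control). Averaged over all libraries, TNFSF10 lay above 92.5% and TNFRSF10B above 88% of the tested genes in level per kilobase, while TNFRSF11B lay above 37.3% and TNFRSF10C above 20.4%.

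The balance between the receptor genes was similar in both groups. Per kilobase, the death receptors made up 79.9%, 78.9% and 81.7% of the summed level of the 4 membrane receptors in vitamin C 1, 2 and 3, against 80.6%, 79.9% and 80.9% in control 1, 2 and 3, and these ranges overlapped. The ratio of TNFRSF10B to TNFRSF10A was 2.12 ± 0.0566 after vitamin C and 2.00 ± 0.159 in control (SD, n = 3 each). The summed level of the 4 membrane receptors was 44.2, 41.3 and 46.8 CPM per kb in vitamin C 1, 2 and 3 and 53.6, 50.4 and 48.8 CPM per kb in control 1, 2 and 3, so each vitamin C well lay below each control well. The ratio of ligand to summed death receptor level was 1.39, 1.44 and 1.39 in vitamin C 1, 2 and 3, against 0.456, 0.784 and 0.712 in control 1, 2 and 3. The size of this ratio depends on the gene length used. With longest transcripts the means after vitamin C were 90.9 for TNFSF10, 12.3 for TNFRSF10A and 30.1 CPM per kb for TNFRSF10B. In control they were 48.5, 14.9 and 34.2 CPM per kb. These sums and ratios were built from the members after their values were known and carry no test. They describe RNA, not receptor protein at the cell surface.

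**Figure D3:**
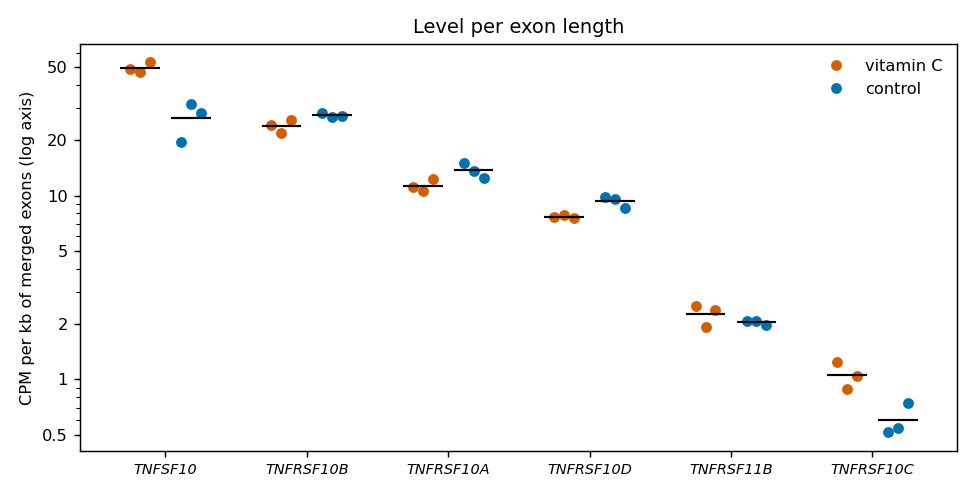
Level of each gene as CPM per kilobase of merged exons on a log axis, ordered by the vitamin C mean, with orange vitamin C wells left of blue control wells. Lines are group means (n = 3 each). The TNFSF10 mean lies above that of TNFRSF10B after vitamin C (49.6 against 24.0) but not in control (26.4 against 27.3). Among the control wells, control 1 alone has TNFSF10 below TNFRSF10B.

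The 4 membrane receptor genes lie side by side on the short arm of chromosome 8, within 205.0 kb. TNFRSF10B is at 23020133 to 23069031, TNFRSF10C at 23102921 to 23117445, TNFRSF10D at 23135588 to 23164027 and TNFRSF10A at 23190452 to 23225102 (GRCh38). TNFRSF10C is on the plus strand, and the other 3 are on the minus strand. The gaps between neighbours are 33.9, 18.1 and 26.4 kb. TNFRSF11B lies far away on the same chromosome (118923557 to 118951885, minus strand). The 3 minus-strand genes of the cluster had values lower after vitamin C and the plus-strand gene had higher values. None of the 4 genes passed by edgeR or by DESeq2, and TNFRSF10C held only 14 to 32 reads in a library. A link between strand and change was not tested. The receptors are paralogs, and since only reads with a single position were counted, reads from nearly identical stretches would be lost.

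Genes that overlap a member or lie within 5 kb of one were also read out, because no source used here tells whether the counting was by strand. TNFRSF10A-AS1, an antisense RNA that shares 224 exon bases with TNFRSF10A, had 11, 14 and 12 reads in vitamin C 1, 2 and 3. It had 5, 9 and 5 reads in control 1, 2 and 3 (log2 fold change 1.31, edgeR adjusted p = 0.0605). Its control wells lay below the filter on low counts, so it was tested only because of its vitamin C wells. TNFRSF10A-DT, a divergent RNA that shares 266 exon bases with TNFRSF10A, stood at 2.67 CPM after vitamin C and 2.47 CPM in control (log2 fold change 0.11, edgeR adjusted p = 0.734). RHOBTB2, a protein-coding gene whose exons overlap the end of TNFRSF10B by 377 bases, stood at 13.6 CPM after vitamin C and 10.9 CPM in control (log2 fold change 0.32, edgeR adjusted p = 0.103). For CHILL1, a non-coding RNA near TNFRSF10B, the value was -0.76 (edgeR adjusted p = 0.185). None of these neighbours passed. The antisense and divergent neighbours of TNFRSF10A held few reads beside the 427 to 899 reads of TNFRSF10A itself. If counting was not by strand, read pairs in shared bases could be ambiguous and enter neither gene. RHOBTB2, on the strand opposite to TNFRSF10B, held 177 to 256 reads in a library. These counts therefore cannot show how many reads of TNFRSF10A or TNFRSF10B were lost or gained through the overlaps. The other neighbours were the pseudogenes TBPL1P1, inside TNFSF10, and RPL23AP55, inside TNFRSF10A, with at most 1 read in a library, a second gene model named TNFRSF10A-DT with at most 3 reads, and a pair of unnamed non-coding RNAs beside or across TNFRSF10B with at most 14 reads. GENCODE 44 also has a pair of longer gene models that overlap TNFRSF10C, sharing 261 and 249 exon bases with it. Neither model is among the 60675 gene identifiers of the counts, and whether their reads were counted for TNFRSF10C was not tested.

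The genes whose profile over the 6 libraries lay nearest to that of TNFSF10 were CX3CL1, ABCC3, ADAM28, SMAD6 and RBM47. A profile was the log2 CPM of a gene in each library minus its mean in the control wells, and nearness was the root mean square difference from TNFSF10 over 6 libraries, among 10281 tested genes with a mean of at least 100 reads. The difference was 0.063 for CX3CL1, which encodes the chemokine fractalkine, 0.074 for ABCC3, a drug and bile salt exporter, and 0.081 for ADAM28, a metalloprotease. It was 0.086 for SMAD6, an inhibitory SMAD, and 0.097 for RBM47, an RNA-binding protein, while the median over all compared genes was 0.711. TNFSF10 itself had profile values of 0.92, 0.85 and 1.03 in vitamin C 1, 2 and 3 and of -0.40, 0.28 and 0.12 in control 1, 2 and 3. All 5 genes shared the low value in control 1, from -0.45 for CX3CL1 to -0.25 for RBM47. Their log2 fold changes lay between 0.84 (ABCC3) and 0.92 (SMAD6), which follows from the way they were chosen and carries no test.

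**Figure D4:**
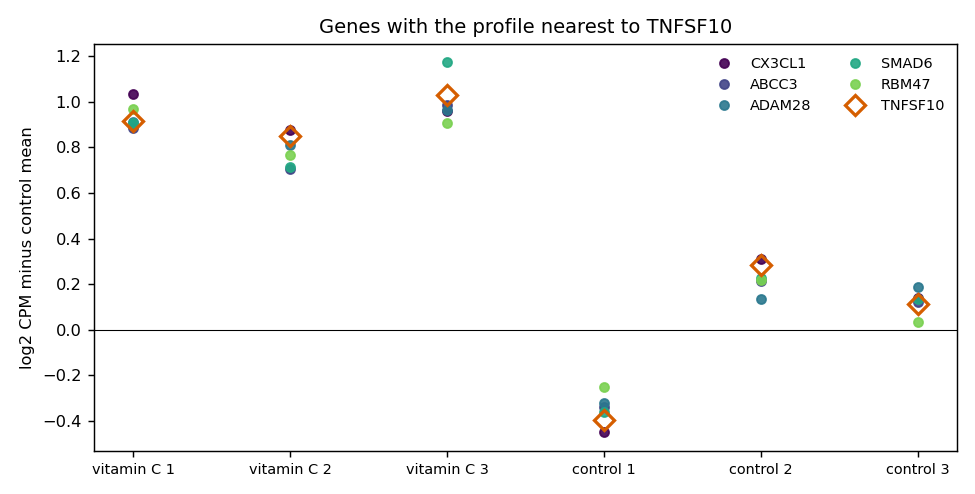
Log2 CPM minus the mean of the control wells for TNFSF10 (open diamonds) and the 5 genes with the nearest profiles, in each vitamin C and control library. All 6 genes lie above 0.7 in the vitamin C libraries and below -0.2 in control 1.

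Most genes that act downstream of the receptors did not pass the test. Over 9 lists of related genes, 10 of the 69 tested genes passed (14.5%, beside 7.08% of all tested genes). That count includes TNFSF18, which entered the test through its control wells alone. Counts at an unadjusted p under 0.05 in these lists stand beside 27.4% of all tested genes. The lists were chosen with earlier results of these data known, and no set test was run. Of 7 genes of the complex that forms on the death receptors, 1 was higher and 0 were lower (median log2 fold change 0.23; at an unadjusted p under 0.05 edgeR had 4 higher and none lower, and DESeq2 called 2 higher and none lower). The called gene was CASP10, an initiator caspase related to caspase-8, at 25.61, 20.03 and 22.04 CPM in vitamin C 1, 2 and 3 and at 13.1, 17.5 and 16.5 CPM in control 1, 2 and 3 (log2 fold change 0.52, SE 0.13, edgeR adjusted p = 0.0388). It passed in 2 of 6 analyses that left out a library, those without vitamin C 2 or 3, with adjusted p up to 0.135 in the others. CASP8 itself stood at 96.3 ± 14.2 CPM after vitamin C and 76.9 ± 3.16 CPM in control (SD, n = 3 each; edgeR adjusted p = 0.0663, DESeq2 adjusted p = 0.0461). CFLAR, which encodes c-FLIP, the caspase-8 inhibitor in the complex, stood at 147.7 ± 5.08 and 125.6 ± 6.21 CPM in the same order (edgeR adjusted p = 0.0661, DESeq2 adjusted p = 0.0743), and the log2 fold change of FADD, the adaptor, was 0.07 (edgeR adjusted p = 0.596).

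In the mitochondrial arm of apoptosis, 1 of 8 genes was lower and none higher, the other 7 not passing (median -0.10; none higher and 1 lower both at an unadjusted edgeR p under 0.05 and by DESeq2). The lower gene was CYCS, encoding cytochrome c, at 322.3 ± 6.13 CPM after vitamin C and 402.8 ± 39.0 CPM in control (log2 fold change -0.32, SE 0.08, edgeR adjusted p = 0.0402), and it did not pass without control 1 (0.141), control 2 (0.108), vitamin C 1 (0.0964) or vitamin C 2 (0.065), or with upper-quartile factors (0.0526). Of 7 inhibitors of apoptosis 1 was lower and none higher, and 6 did not pass (median -0.15; none higher and 2 lower both at an unadjusted edgeR p under 0.05 and by DESeq2). That gene was MCL1, a short-lived survival protein of the BCL2 family, which fell to 276.6 ± 14.01 CPM in vitamin C wells, against 368.1 ± 35.7 CPM in control wells (log2 fold change -0.41, SE 0.09, edgeR adjusted p = 0.0224). MCL1 did not pass without control 1 (0.087) or without control 2 (0.0709).

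Among the rest of the TNF superfamily, 3 of 20 tested genes passed. Of 17 other ligand genes 6 were abundant enough to be tested, of which 1 was lower, none higher and 5 past neither side (median -0.01; 2 higher and 1 lower at an unadjusted edgeR p under 0.05, and none in either direction by DESeq2). FASLG and CD70 had no read in any library, and TNF had 1 read in all. The lower gene, TNFSF18, the ligand of the T cell receptor GITR, had 1, 4 and 3 reads in vitamin C 1, 2 and 3, against 28, 27 and 27 reads in control 1, 2 and 3. The depth-scaled ratio of vitamin C to control was 0.124, with a 95% counting interval from 0.052 to 0.257 (edgeR adjusted p = 0.00604). TNFSF18 passed in all of the 14 alternatives that gave it an adjusted p, while DESeq2 gave none. Its vitamin C wells lay below the filter on low counts, so it entered the main test through its control wells alone. A gene kept in this way can hardly be called other than lower, so its call is not independent evidence of a fall. Of 14 tested receptor genes 2 were higher and none lower, the other 12 not passing (median 0.16; 3 higher and 1 lower at an unadjusted edgeR p under 0.05, and 3 higher and none lower by DESeq2). FAS, the death receptor for FASLG, stood at 9.10, 9.11 and 8.62 CPM in vitamin C 1, 2 and 3, against 5.40, 6.25 and 6.11 CPM in control 1, 2 and 3 (log2 fold change 0.59, SE 0.13, edgeR adjusted p = 0.0269). For TNFRSF1B, the type II TNF receptor, the log2 fold change was 0.41 (SE 0.11, edgeR adjusted p = 0.0454). FAS and TNFRSF1B each passed in 1 of 6 analyses that left out a library, the one without vitamin C 3, with adjusted p up to 0.101 for FAS and 0.146 for TNFRSF1B in the others. TNFRSF1B also did not pass with library totals only (0.0531).

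Of 12 transcription factors known to act on TNFSF10 or its receptors, IRF1, an interferon-regulated factor that binds interferon response elements, was higher and none lower, the other 11 not passing (median -0.09; 1 higher and 1 lower at an unadjusted edgeR p under 0.05, and 1 higher and none lower by DESeq2). IRF1 stood at 66.5, 63.8 and 55.2 CPM in vitamin C 1, 2 and 3, against 38.4, 36.5 and 36.4 CPM in control 1, 2 and 3. All vitamin C wells lay above all control wells (log2 fold change 0.74, SE 0.09, edgeR adjusted p = 0.00279), and IRF1 passed in all 15 alternatives. Of 10 tested interferon-induced genes 2 were higher, 1 was lower and 7 did not pass (median -0.09; 2 higher and 3 lower at an unadjusted edgeR p under 0.05, and 2 higher and 2 lower by DESeq2). MX1, an antiviral GTPase, was 0.63 higher on the log2 scale (SE 0.11, edgeR adjusted p = 0.0131), and OAS2, an antiviral RNA sensor, 0.48 higher (SE 0.10, edgeR adjusted p = 0.0257). The lower gene was IFIT2, another antiviral protein, at -0.34 (SE 0.09, edgeR adjusted p = 0.0467). MX1 did not pass without control 1 (0.0614), OAS2 passed only without vitamin C 3 among the analyses that left out a library, and so did IFIT2, with adjusted p up to 0.103 for OAS2 and 0.154 for IFIT2 in the others. IFIT2 also did not pass with upper-quartile factors (0.0612), with library totals only (0.0623) or with limma-voom (0.0501).

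The genes of the TET enzymes, which oxidize 5-methylcytosine in DNA and use ascorbate as a cofactor, did not pass in either direction. TET2, the most abundant, stood at 63.4 ± 3.77 CPM after vitamin C and 58.0 ± 4.09 CPM in control, and TET3 at 28.1 ± 5.41 and 27.5 ± 3.97 CPM in the same order (SD, n = 3 each). None of the 3 passed in either direction, whether by edgeR, by DESeq2 or at an unadjusted edgeR p under 0.05, and their log2 fold changes lay between 0.02 and 0.13.

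**Figure D5:**
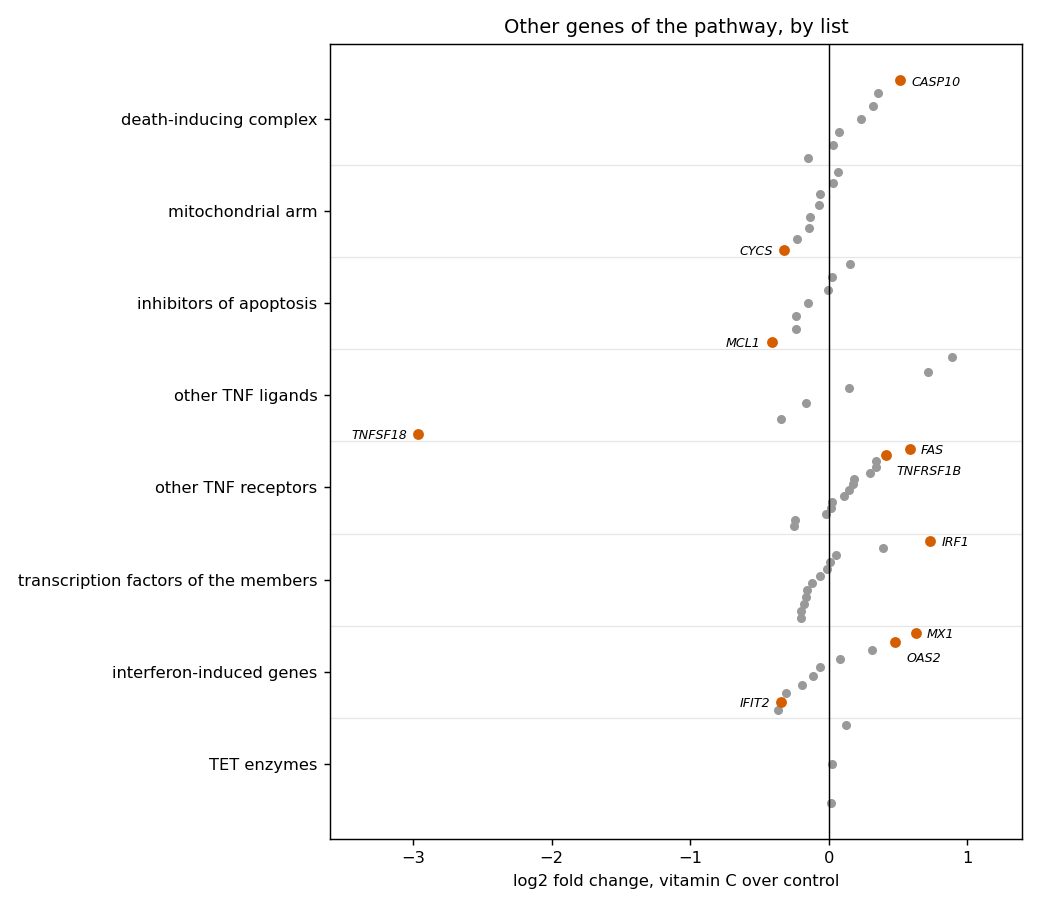
Change in vitamin C wells relative to control wells (log2) for every tested gene of 8 lists, sorted by size within each list. Orange points with names have an edgeR adjusted p under 0.05 (10 of 66 genes), grey points do not, and TNFSF18 at the far left rests on 8 reads after vitamin C and 82 reads in control.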

How the data were processed

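Each of the 6 libraries had a file of unnormalized read counts by Ensembl gene, as the authors deposited them. Their processing notes name CASAVA 1.4, Trim Galore, STAR and hg38. The STAR version, Ensembl release and strand setting were not given in the sources. The 4 summary lines of each file (unmapped, multimapping, unassigned and ambiguous read pairs, 50.6% to 69.7% of a library) entered neither library sizes nor tests.

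GENCODE 44 (GRCh38) gave symbols and positions for 56558 of 60675 identifiers. In R 4.3.3, edgeR 4.0.16 was fitted across all genes with TMM factors (0.972 to 1.02), filterByExpr at a minimum count of 10 (15261 genes kept), the quasi-likelihood F test and Benjamini-Hochberg adjustment at 0.05; intervals are edgeR estimates with 95% t limits. DESeq2 1.42.0 and limma 3.58.1 were alternatives, run across all genes too. The biological coefficient of variation was 9.40%. Replicate libraries were not duplicates (chi-square over degrees of freedom 5.03 to 24.1, above the 1 of sampling noise).

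The members and the gene lists were chosen with earlier results of these data known. The text names the members, list genes that passed edgeR (otherwise the 2 most abundant), genes within 5 kb of a member and the 5 genes with the profile nearest to TNFSF10, for which 0.5 was added to each count. Marker genes were named as a check of the cells. FADD, CASP8, CFLAR, FASLG, CD70, TNF and TNFSF11 are named outside the rule, chosen with their values in view. A table of all samples was not used. Of the 9 lists, 1 counts in the totals but is not reported here.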

Additional observations from a re-analysis of the deposited data

How the results depend on the processing

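TNFSF10 kept its direction and passed in all 15 alternatives (DESeq2 size factors in edgeR, upper-quartile factors, library totals, no filter, DESeq2, likelihood ratio test, limma-voom, replicate block, thinning and each library left out), with log2 fold changes of 0.73 to 1.05 and adjusted p of 1.64e-20 to 0.0286 (0.00455 to 0.0286 with a library left out). The other 5 members kept their direction in all 15. With a library left out, log2 fold changes ran from -0.34 to -0.20 for TNFRSF10A, -0.24 to -0.13 for TNFRSF10B, 0.69 to 0.98 for TNFRSF10C, -0.35 to -0.25 for TNFRSF10D and 0.09 to 0.25 for TNFRSF11B. With the likelihood ratio test TNFRSF10C (0.81) and TNFRSF10D (-0.29) passed, making 3 members called, 2 higher and 1 lower; without vitamin C 3, 2 were called, 1 higher and 1 lower, while leaving out any other library gave 1 higher and 0 lower.

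Over all genes 1080 were called (549 higher, 531 lower). Without a filter there were 2245 (1079 and 1166), with the likelihood ratio test 1982 (1059 and 923), and DESeq2 called 857 lower. Upper-quartile factors gave 687 higher and 377 lower. With a library left out the count ran from 128 to 1900 (69 to 942 higher, 59 to 958 lower). Leaving out control 1, 2 or 3 gave 128, 142 or 693. Leaving out vitamin C 1, 2 or 3 gave 388, 503 or 1900. All of these analyses had fewer libraries, and the cause of the spread was not tested. Of the list genes 2 to 13 were called with a library left out (1 to 8 higher, 1 to 5 lower), and upper-quartile factors gave 2 lower in place of 4. With longest transcripts the death receptors' share was 82.7% after vitamin C and 83.1% in control, in place of 80.1% and 80.5%; with a library left out it ran from 79.4% to 80.8% after vitamin C and from 80.2% to 80.8% in control.

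Nothing states whether same-numbered libraries were paired. Their deviations correlated at 0.05, -0.13 and -0.10 for numbers 1, 2 and 3, and vitamin C 2 and 3 correlated best with control 3 and 2 (0.12 and 0.16). With 3 libraries in a group these values cannot decide whether the wells were paired. The replicate block gave 731 calls (393 higher, 338 lower), TNFSF10 at 0.93 (adjusted p = 0.00391) and 1 member called. Of the list genes called, CASP10 (0.0576), CYCS (0.0669) and TNFRSF1B (0.0595) had adjusted p above the threshold with the block. Depth limits TNFRSF10C most, with 14 to 32 reads in a library.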
